A study of Mus musculus with 83 samples.

Results

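RNA polymerase II (Pol II) was followed over the 42 Hox and Cdx homeobox genes of the mouse, chosen by name: every gene of the count tables called Hoxa, Hoxb, Hoxc or Hoxd with a number, and Cdx1, Cdx2 and Cdx4. They are 42 of 27752 genes, namely 39 Hox genes (11 of the Hoxa, 10 of the Hoxb, 9 of the Hoxc and 9 of the Hoxd cluster) and 3 Cdx genes. The assay was CUT&Tag: an antibody to the Rpb1 subunit brings a transposase to chromatin, which cuts and tags the DNA around bound polymerase. The count of a gene is the number of sequenced fragments assigned to its whole annotated length, and CPM (counts per 1e+06 of the scaled library total) are used for levels.

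The 24 libraries came from mouse embryonic stem cells kept in serum and LIF. The parent line, C64, carries a degron on both alleles of the TATA-box binding protein (TBP), so that the auxin indole-3-acetic acid (IAA) depletes TBP. The study reports that the depletion was incomplete and that some TBP remained. Removal of TBP stands for this incomplete depletion throughout. B8 is a clone of C64 whose Tbpl1 locus, which encodes the TBP-related factor TRF2, was deleted. All groups therefore carry degron-tagged TBP, and each line is a single clone. Both lines derive from JM8.N4 cells. According to the study they also carry a HaloTag on Rpb1, the subunit bound by the antibody, and GFP on histone H3.3. The study describes its controls as treated with DMSO. In run 3, C64 cells were controls, had IAA (500 µM) for 16 h, retinoic acid (RA) for 16 h, or RA and IAA for 16 h. In run 2, C64 cells were controls, had IAA for 6 h, a heat shock (HS) of 30 min at 42 °C, or IAA for 6 h and then heat shock with IAA. In runs 6 and 8, B8 cells were controls or had IAA for 6 h. Each group of a run has 2 libraries. The labels give an RA concentration of 25 µM, and the methods of the study give a lower one. For run 2, column names of the count tables show 2 sets of libraries that could not be tied to replicate numbers, and the sets are called a and b here.

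Hox genes encode homeodomain transcription factors that set the identity of body segments along the head-to-tail axis. Within each cluster they are ordered so that the genes at the 3' end (paralog 1 and its neighbours) are switched on earlier and nearer the head than those at the 5' end (paralog 13). In embryonic stem cells the clusters are bound by Polycomb complexes and kept largely silent, RA is the classic signal that switches on the 3' genes through retinoic acid receptors, and the Cdx proteins are homeodomain factors that act upstream of the more posterior Hox genes.

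How much of each gene could give a count depended on its neighbours, because a fragment over more than 1 annotated gene was not counted and the strand was not used. Of the 42 genes, 12 (28.6%, against 12.6% of all genes in the tables) had no base free of another gene, and exactly these 12 were at 0 in all 24 libraries: Hoxa3, Hoxa4, Hoxa5, Hoxa6, Hoxb2, Hoxb5, Hoxb6, Hoxc6, Hoxc8, Hoxc9, Hoxd4 and Hoxd8. Their 0 therefore says nothing of Pol II at these genes. Most lie under an antisense noncoding gene (Hoxb5os over Hoxb5 and Hoxb6, Hoxb3os over Hoxb2, Hoxd3os1 over Hoxd4 and Hoxd8) or inside a long annotated neighbour (Hoxc6, Hoxc8 and Hoxc9 inside Hoxc5). A further 11 genes were countable in part. Hoxd3 kept 503 of 36516 bp and had 0 to 3 counts in a library, and Hoxc10 kept 647 of 5098 bp. The annotated Hoxc5 spans 49987 bp from Hoxc10 to its own coding part, of which 19568 bp were countable, so its count comes from stretches between other Hoxc genes. The other 19 genes, Cdx1, Cdx2 and Cdx4 among them, were countable over their whole length.

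**Figure D1:**
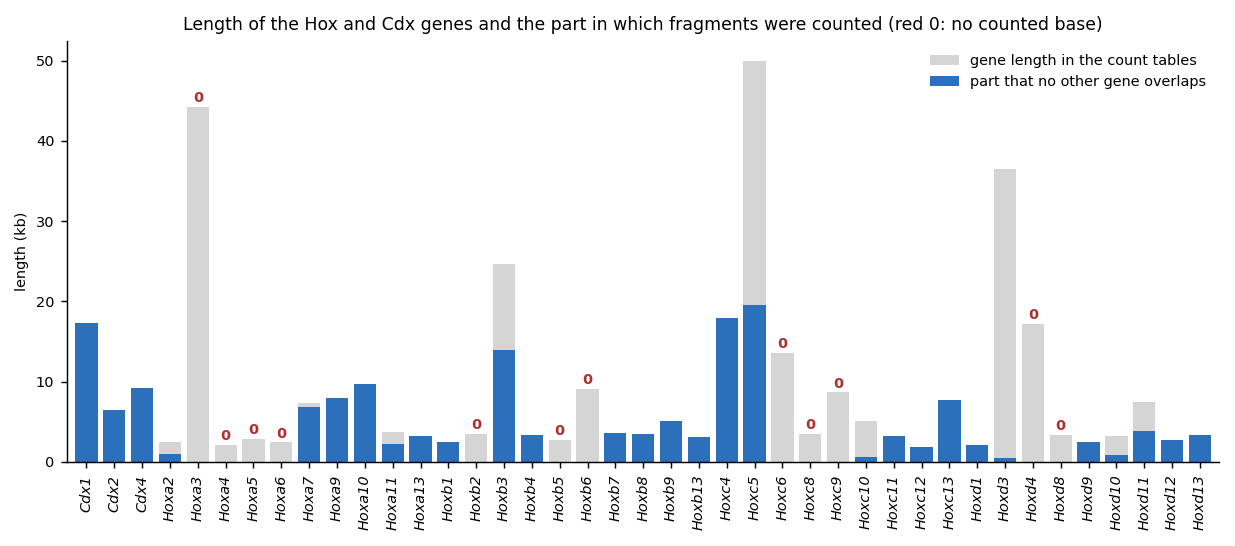
Annotated length of 41 of the 42 Hox and Cdx genes in kb (grey bars) and the part of it that no other gene overlaps (blue bars). A red 0 marks the 12 genes without a countable base, which are the genes at 0 in all 24 libraries.

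Fragments assigned to genes numbered 3854622 to 5056322 in the 16 C64 libraries, 900651 to 1157308 in the 4 B8 libraries of run 6 and 2330887 to 2523832 in the 4 of run 8. The Hox and Cdx genes together took 0.026% to 0.0973% of them, or 344 to 4536 counts. The cells carried Pol II on the stem cell genes Esrrb (205 to 1243 CPM over all libraries) and Tfcp2l1 (160 to 1184 CPM). Both genes are long, at 160512 and 57224 bp, and these CPM are not divided by length. Shorter pluripotency genes were lower. Over the C64 libraries Zfp42 was at 21.05 to 81.96 CPM, Nanog at 5.51 to 17.9 CPM and Klf4 at 5.873 to 18.51 CPM. Pou5f1 was at 2.975 to 18.12 CPM and Dppa3 at 2.557 to 12.67 CPM there. Sox2 has no countable base. Tbpl1 was at 6.23 to 16.0 CPM in C64 and at 0 to 4.37 CPM (0 to 10 counts) in B8, lower in all B8 libraries than in any C64 library but not at 0 in all of them. Within a group the log2 CPM of the 2 libraries correlated at 0.938 to 0.976 across genes in C64 and at 0.901 in the B8 controls of run 6, a description over genes of 1 library pair.

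In control C64 cells, Pol II on the Hox and Cdx genes was above that on silent genes. Over the 30 genes with countable bases, the median of the level per countable kb, averaged over the 4 control libraries of runs 2 and 3, was 3.01 CPM, against 0.806 over all genes and 0.0809 over 1380 olfactory receptor genes, which are not used in stem cells. All 30 exceeded the 95th percentile of the olfactory receptor genes (0.418 CPM per kb), and 25 of 30 exceeded the median of all genes. The pluripotency gene Pou5f1 was at 3.13 CPM per kb on the same scale. The levels per countable kb ran from 12.7 ± 6.33 CPM (SD, n = 4) for Hoxc10, of which only 647 bp count, 6.72 ± 0.92 for Hoxd11, 5.61 ± 2.10 for Hoxc11, 5.57 ± 1.5 for Hoxb8 and 4.94 ± 1.77 for Hoxa9 down to 0.649 ± 0.221 for Cdx1, 0.553 ± 0.0239 for Cdx4 and 0.430 ± 0.349 for Hoxd3. Every pair of neighbours in this order overlapped between libraries, so the order is fixed only between genes far apart in it. The first 10 places held genes of paralogs 9 to 13 along with Hoxb8, Hoxb4 and Hoxb7. Other genes of paralogs 9 to 13 lay low, such as Hoxd10 at place 23 and Hoxc13 at place 24. The 3' genes Hoxb1 (2.14 ± 0.785) and Hoxd1 (0.679 ± 0.288) lay in the lower part. Per kb of gene length, Hoxc10 was at place 20 and Hoxd11 at place 12. No library of a nonspecific antibody was used here, so the olfactory receptor genes stand in for the background. Neither they nor Pou5f1 nor the set of all genes was matched to the members in length, base content or openness of chromatin. The part of such differences in these levels was not tested.

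The first question is what RA did to Pol II over the clusters in cells with TBP. Cdx1, a direct RA target, was higher in both RA libraries than in both controls, while Cdx2 and most Hox genes of all 4 clusters were lower. Of 25 members with enough counts to test, 23 had a negative log2 fold change and the median was -0.81, against 0.02 over all 16350 genes tested. In 18 of the 25 both RA libraries lay below both controls, as in 17.3% of all genes, and in 1 (Cdx1) both lay above, as in 16.3%. Hoxa2, Hoxd1, Hoxd3 and Hoxd10 were among the members with too few counts to test.

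edgeR's quasi-likelihood test without a block is the fit used throughout as the first one. It called 0 of the 25 and 3 of 16350 genes (0.0183%) at a Benjamini-Hochberg adjusted p under 0.05. At an unadjusted p under 0.05 were 13 members, as were 6.17% of all genes tested. edgeR's likelihood-ratio test called 4 members, 1 higher and 3 lower (0.807% of genes), and DESeq2 called 0 (0.532%). Over all genes tested, same-numbered libraries of run 3 deviated together in all 6 pairs of groups, so the replicate number was used as a block. For control and RA these deviations correlated at 0.560 over all genes tested but at 0.135 over the 25 members. With the block 14 members passed, 1 higher and 13 lower, where 1863 genes (11.4%) passed. The blocked fit has 2 libraries a group and draws its estimate of the spread largely from the other genes. Leaving out the second control called only Cdx1 (log2 fold change 1.71, adjusted p = 0.0289, with 0.278% of genes called) and leaving out the second RA library called only Hoxd11 (-1.68, adjusted p = 0.0385, with 0.338%), both without the block. In bulk cells, fewer cells with Pol II on a gene and less Pol II per cell cannot be told apart.

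**Figure D2:**
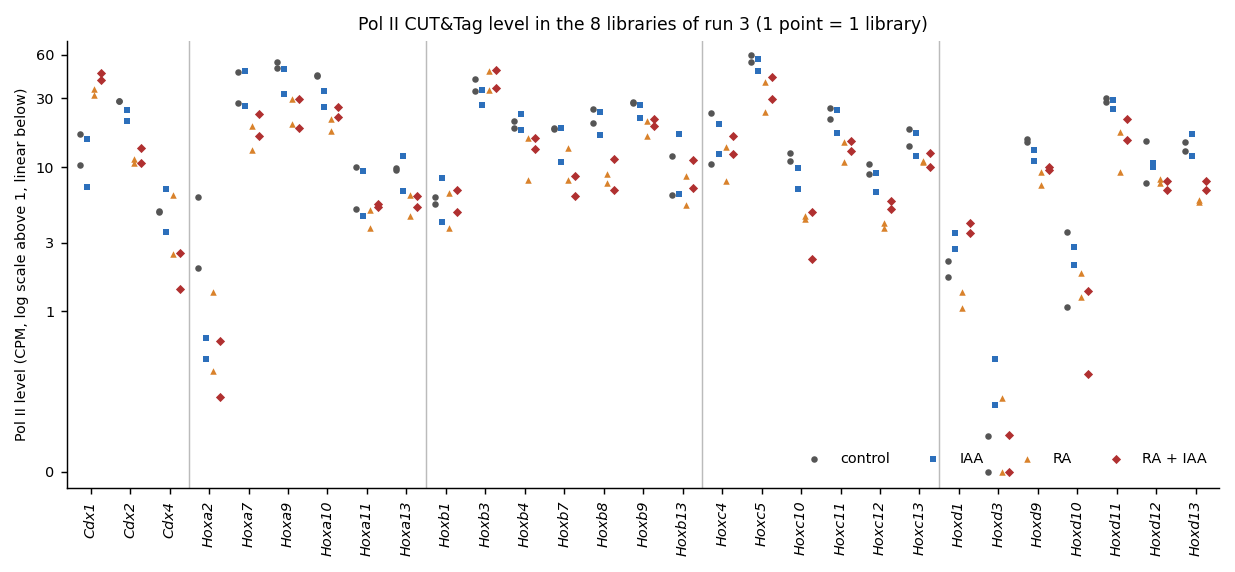
Pol II level in CPM of 29 of the 30 Hox and Cdx genes with countable bases in each of the 8 libraries of run 3 (y axis logarithmic above 1 and linear below; 1 point is 1 library; colours are the control, IAA, RA and RA with IAA groups; vertical lines divide Cdx, Hoxa, Hoxb, Hoxc and Hoxd). Cdx1 is highest in the 4 libraries with RA (31.8 to 44.6 CPM), and the RA points of Cdx2, Hoxa10, Hoxb8 and Hoxd13 lie below the control points.

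Cdx1 patterns the vertebrae and its promoter is a known RA target. It was at 10.3 and 16.9 CPM in the controls, 7.29 and 15.7 with IAA, 34.6 and 31.8 with RA and 39.8 and 44.6 with RA and IAA, so that all 4 libraries with RA exceeded all 4 without it. The log2 fold change with RA was 1.29 ± 0.31 (SE). Its adjusted p by edgeR's quasi-likelihood test was 0.464 without the block and 1.22e-06 with it. The study, whose fits used edgeR's likelihood-ratio test, lists Cdx1 among the genes that rose with RA. Cdx2, needed for the trophectoderm and later for the gut and the tail end, went the other way: it was at 28.8 and 28.9 CPM in the controls, 25.01 and 20.9 with IAA, 10.7 and 11.4 with RA and 10.6 and 13.5 with RA and IAA. Both RA libraries and both with RA and IAA lay below the 4 others, at a log2 fold change of -1.37 ± 0.26 (adjusted p = 0.273 without and 2.78e-06 with the block). Cdx4, an X-linked gene that acts with Cdx1 and Cdx2 in the embryo's posterior, was at 4.94 and 4.89 CPM in the controls, 3.54 and 7.03 with IAA, 2.52 and 6.41 with RA and 1.43 and 2.56 with RA and IAA. Its RA libraries overlapped the controls (-0.13 ± 0.58), and the sign turned to 0.40 without the first RA library.

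The promoter stretches of 4 members with a negative RA fold change that passed in the blocked fit are shown, read 5' to 3' on the gene's strand from the genome (GRCm38.p6, upstream of the RefSeq start, with none of the bases in an annotated UTR). Capitals mark every match, on either strand. The same stretches of Hoxa10 and Hoxd11, which also passed in that fit, held no match and are not printed. The motifs searched were TATAAA, the letters of the TATA box, which reads TTTATA from the other strand, and CCAAT, which reads ATTGG. A half-site of retinoic acid receptors was searched as AGGTCA, which reads TGACCT from the other strand. Its variant was searched as AGTTCA, which reads TGAACT.
Cdx2, chr5:147307271-147307449, minus strand: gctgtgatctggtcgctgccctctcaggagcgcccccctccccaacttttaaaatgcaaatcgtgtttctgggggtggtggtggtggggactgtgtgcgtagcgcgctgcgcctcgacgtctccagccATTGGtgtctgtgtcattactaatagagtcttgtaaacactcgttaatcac
Hoxb4, chr11:96318067-96318266, plus strand: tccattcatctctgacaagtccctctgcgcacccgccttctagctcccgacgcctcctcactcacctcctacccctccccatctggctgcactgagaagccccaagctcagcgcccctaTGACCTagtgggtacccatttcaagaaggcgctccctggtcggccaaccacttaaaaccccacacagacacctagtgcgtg
Hoxb8, chr11:96281705-96281904, plus strand: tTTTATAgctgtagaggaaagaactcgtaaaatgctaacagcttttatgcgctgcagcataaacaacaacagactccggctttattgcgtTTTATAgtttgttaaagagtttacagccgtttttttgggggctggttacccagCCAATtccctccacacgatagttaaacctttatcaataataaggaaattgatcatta
Hoxd13, chr2:74668025-74668224, plus strand: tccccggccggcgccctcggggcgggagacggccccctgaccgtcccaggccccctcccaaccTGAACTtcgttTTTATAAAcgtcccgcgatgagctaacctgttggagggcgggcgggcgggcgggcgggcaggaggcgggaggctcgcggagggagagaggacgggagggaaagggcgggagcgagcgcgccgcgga

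Hoxb8 shows 2 matches to TATAAA on the minus strand and 1 CCAAT, and Hoxd13 shows a run in which TATAAA on both strands overlaps, beside 1 AGTTCA on the minus strand. Hoxb4 shows 1 AGGTCA and Cdx2 1 CCAAT, both on the minus strand. RefSeq promoter windows, 250 bases before to 50 bases after a start, were available for 24 members. CCAAT was in the windows of 17 of the 24 members (70.8%, against 37.4% of all 32851 windows) and AGGTCA in 7 (29.2% against 16.3%). TATAAA was in 4 (16.7% against 13.6%) and AGTTCA in 2 (8.33% against 14%). The shares of members are per gene and those of all promoters per window. The 24 members had 26 windows, and the same numbers of these, 17, 7, 4 and 2, held a match. The direct repeats of either half-site spaced by 2 or 5 bases, which contain the half-site itself, were in no member window and in 0.00913% to 0.0244% of all windows. A match is a description of letters and no evidence of a bound factor. The authors' list of TATA-box genes held 19 members (and 18.6% of all genes in the tables), their list of TATA-less genes 19, among them Hoxb8, and 4 members were on neither.

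In the Hoxa cluster (chromosome 6, minus strand), Hoxa7, which patterns thoracic vertebrae, was at 27.7 and 45.4 CPM in the controls, 26.7 and 45.9 with IAA, 13.2 and 19.2 with RA and 16.3 and 23.5 with RA and IAA. Hoxa9, a regulator of blood progenitors, was at 48.3 and 53.1 in the controls, 32.3 and 47.6 with IAA, 19.9 and 29.5 with RA and 18.6 and 29.8 with RA and IAA. Hoxa10, which patterns the lumbar spine and the uterus, was at 42.8 and 43.1 in the controls, 26.1 and 33.7 with IAA, 17.8 and 21.5 with RA and 22.2 and 26.3 with RA and IAA. In all 3 of these the RA libraries lay below the controls. The log2 fold changes were -1.16 ± 0.35 for Hoxa7, -1.02 ± 0.27 for Hoxa9 and -1.11 ± 0.24 for Hoxa10 (adjusted p 1.08e-05, 1.43e-06 and 2.18e-06 in edgeR's blocked fit; 0.639, 0.554 and 0.361 without the block). Hoxa11 (-0.77 ± 0.51) and Hoxa13 (-0.81 ± 0.40), genes of the distal limb and the reproductive tract, did not pass in either fit.

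In the Hoxb cluster (chromosome 11, plus strand), Hoxb1, the marker gene of the fourth hindbrain segment and an RA target, was at 6.23 and 5.56 CPM in the controls, 4.17 and 8.43 with IAA, 3.78 and 6.64 with RA and 6.94 and 4.88 with RA and IAA. The groups overlapped, the log2 fold change was -0.17 ± 0.49 and its sign turned to 0.19 without the first RA library. Hoxb3, a hindbrain and neck gene counted over 13936 of 24605 bp, was at 33.5 and 40.7 CPM in the controls, 27.1 and 33.97 with IAA, 46.6 and 34.1 with RA and 46.7 and 35.6 with RA and IAA and was the only Hox gene tested with a positive fold change (0.13 ± 0.25). Hoxb4, which expands blood stem cells, was at 18.7 and 20.9 CPM in the controls, 17.9 and 23.4 with IAA, 8.18 and 15.8 with RA and 15.9 and 13.2 with RA and IAA. Hoxb7 was at 18.3 and 18.7 in the controls, 10.8 and 18.5 with IAA, 8.18 and 13.5 with RA and 6.33 and 8.602 with RA and IAA. Hoxb8, active in myeloid progenitors, was at 25.1 and 20.2 in the controls, 16.7 and 24.1 with IAA, 9.02 and 7.78 with RA and 11.4 and 6.97 with RA and IAA. For Hoxb8 the 4 libraries with RA were the 4 lowest, and for Hoxb4 and Hoxb7 the RA libraries lay below the controls. Hoxb8 had the largest Hox fold change of the comparison, -1.42 ± 0.30 (edgeR adjusted p 2.22e-05 with and 0.332 without the block). Hoxb4 (-0.71 ± 0.38) and Hoxb7 (-0.75 ± 0.35) lay just inside the threshold with the block, at adjusted p 0.0490 and 0.0489. Hoxb9 (-0.57 ± 0.25) and Hoxb13 (-0.37 ± 0.48) did not pass.

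In the Hoxc cluster (chromosome 15, plus strand), Hoxc5 was at 53.1 and 59.8 CPM in the controls, 46.05 and 55.8 with IAA, 23.9 and 38.7 with RA and 29.8 and 41.9 with RA and IAA. Hoxc10, a gene of lumbar motor neurons, was at 10.96 and 12.4 CPM in the controls, 7.08 and 9.84 with IAA, 4.62 and 4.35 with RA and 4.897 and 2.33 with RA and IAA. Both RA libraries were below both controls for each. The pair of 5' neighbours followed. Hoxc11 was at 25.6 and 21.6 CPM in the controls, 17.1 and 24.8 with IAA, 10.9 and 14.9 with RA and 12.9 and 15.1 with RA and IAA. Hoxc12 was at 10.5 and 8.89 in the controls, 6.67 and 9.14 with IAA, 3.78 and 4.12 with RA and 5.102 and 5.81 with RA and IAA. Here too the RA libraries did not reach the controls. The log2 fold changes were -0.84 ± 0.29 (Hoxc5), -1.37 ± 0.38 (Hoxc10), -0.86 ± 0.30 (Hoxc11) and -1.28 ± 0.41 (Hoxc12), with edgeR adjusted p of 2.48e-05, 0.0061, 0.0100 and 0.0215 in the blocked fit and between 0.572 and 0.761 without the block. Hoxc13, a hair and nail gene, was at 18.3 and 14 CPM in the controls, 11.9 and 17.3 with IAA, 10.9 and 10.98 with RA and 9.999 and 12.6 with RA and IAA and did not pass (-0.55 ± 0.31), nor did Hoxc4 (-0.64 ± 0.48).

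In the Hoxd cluster (chromosome 2, plus strand), the limb genes Hoxd11 and Hoxd13 passed in the blocked fit. Hoxd11 was at 30.1 and 28.2 CPM in the controls, 25.4 and 29.1 with IAA, 9.23 and 17.4 with RA and 21.4 and 15.3 with RA and IAA. Hoxd13, the digit gene at the 5' end, was at 14.8 and 12.9 in the controls, 11.9 and 16.9 with IAA, 5.87 and 5.72 with RA and 7.96 and 6.97 with RA and IAA. Their RA libraries lay below their controls, with log2 fold changes of -1.12 ± 0.35 and -1.24 ± 0.35 (edgeR adjusted p 7.15e-05 and 0.0063 with the block, 0.678 and 0.572 without). Hoxd9 (-0.85 ± 0.32) missed the threshold with the block at an adjusted p of 0.0535, and Hoxd12 (-0.51 ± 0.43) did not pass. The most 3' gene, Hoxd1, was at 1.72 and 2.22 CPM in the controls, 2.71 and 3.51 with IAA, 1.05 and 1.37 with RA and 4.08 and 3.49 with RA and IAA. That is 5 to 20 counts, and it was not tested; the RA libraries were the lowest of the 8 and those with RA and IAA lay with the IAA libraries above the controls.

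**Figure D3:**
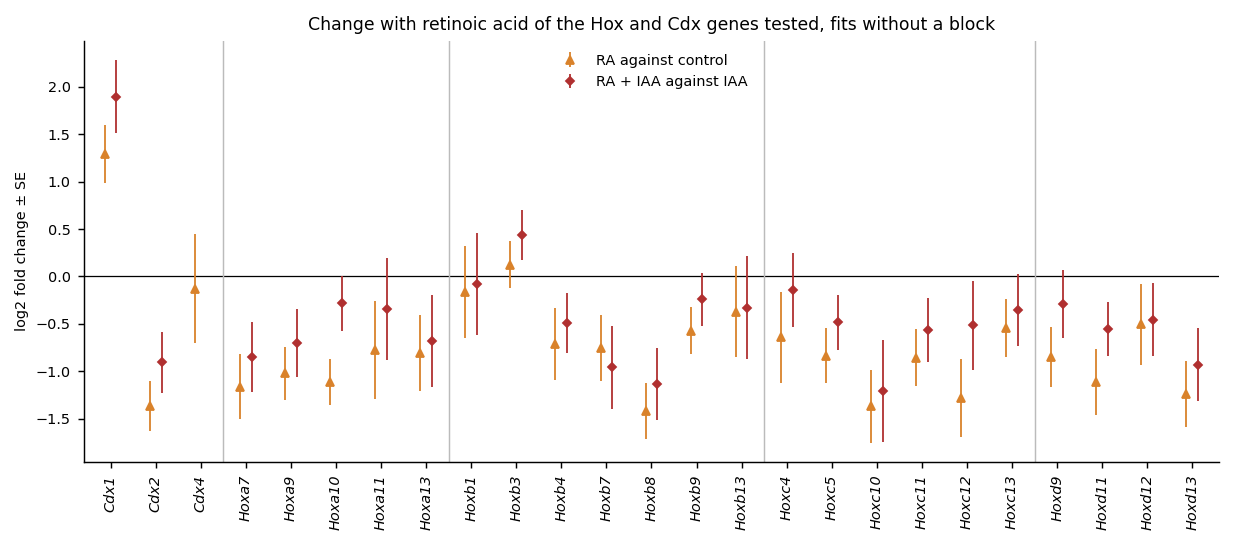
Log2 fold change (± SE, fits without a block) of each Hox and Cdx gene tested for RA against control (orange) and RA with IAA against IAA (red; Cdx4 was not tested there). Cdx1 stands at 1.29 and 1.90, and 23 of 25 orange and 22 of 24 red points lie below 0.

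Along the clusters, the fold changes did not run from positive at the 3' end to negative at the 5' end. Among the 22 Hox genes tested, paralogs 1 to 4 had a median log2 fold change of -0.40 (4 genes, 1 of them positive), paralogs 5 to 9 of -0.85 (7 genes) and paralogs 10 to 13 of -0.86 (11 genes). Spearman's rho of paralog number against fold change was -0.20 over these 22 genes, which share their 4 libraries and are neighbours in the genome. The cluster medians were -1.02 (Hoxa, 5 genes), -0.57 (Hoxb, 7), -0.85 (Hoxc, 6) and -0.98 (Hoxd, 4). Of 8 genes of paralogs 1 to 4 with countable bases, 4 could not be tested, so the 3' ends rest on Hoxb1, Hoxb3, Hoxb4 and Hoxc4.

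The summed level of the 39 Hox genes was 478 and 529 CPM in the controls of run 3 and 260 and 316 CPM with RA. The controls of run 2 were at 322 and 329 CPM, just above the RA libraries. The run 3 controls were thus higher than the controls of the other C64 run, by an amount close to the RA difference, and the part of this in the RA result was not tested.

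The same question was asked in cells depleted of TBP, in which some TBP remained. Cdx1 was again higher with RA and most Hox genes lower: of 24 members tested for RA with IAA against IAA, 22 had a negative log2 fold change, with a median of -0.49 against 0.03 over all genes. Cdx1 had 1.90 ± 0.39. edgeR's quasi-likelihood test without the block called 0 members of 24 and 0 of 16395 genes (0%). An unadjusted p under 0.05 was found for 4 members and for 3.84% of genes. edgeR's likelihood-ratio test and DESeq2 each called Cdx1 alone (0.439% and 0.409% of genes). With the block, Cdx1 passed (1.96 ± 0.26, adjusted p = 7.23e-05), alone among the members, where 1.82% of genes passed. Cdx1 also passed without the block when the second IAA library (2.57) or either RA with IAA library (1.98 and 1.78) was left out, where 0.0976%, 0.609% and 0.845% of genes passed. Both libraries with RA and IAA lay below both with IAA in 16 members, as in 13.5% of genes. The largest negative values were those of Hoxc10 (-1.21 ± 0.54), Hoxb8 (-1.14 ± 0.38), Hoxb7 (-0.96 ± 0.44), Hoxd13 (-0.93 ± 0.38) and Cdx2 (-0.91 ± 0.32), none of them past the threshold. Hoxb3 was the only Hox gene above 0 (0.44 ± 0.27). Hoxb1 (-0.08 ± 0.54) turned to 0.53 without the second IAA library and to 0.13 without the second RA with IAA library.

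Whether the RA response differed with TBP removed was tested as an interaction over the 4 groups of run 3. edgeR called 0 members of 25 and 0 of 17032 genes (0%) without the block, and 0 of each (0%) with it. In both fits 1 member had an unadjusted p under 0.05, as did 0.693% of genes without and 3.41% with the block. The likelihood-ratio test and DESeq2 also called 0. The difference (RA fold change with IAA minus that without) was positive for 23 of 25 members, with a median of 0.32 against 0.02 over all genes. Hoxa10 had the smallest unadjusted p, 0.0414, at 0.83 ± 0.35, and an adjusted p of 1. RA with IAA against RA alone also had 0 members of 24 called by edgeR (0%). With the block 0 were called too, where 1.04% of genes passed. The likelihood-ratio test and DESeq2 likewise called 0. At an unadjusted p under 0.05 were 0 members and 0.633% of genes without the block. Of the 24 fold changes 20 were positive, with a median of 0.20.

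Other genes of the pathway responded in the same libraries. Of 15 retinoid genes (receptors, carriers and known targets), 7 rose with RA in edgeR's blocked fit and 0 fell, where 11.4% of all genes passed. The premeiotic gene Stra8 was at 14.4 and 18.9 CPM in the controls and 279 and 174 with RA, and the receptor cofactor gene Nrip1 at 35.4 and 39.1 and 266 and 203. Both also rose without the block (3.77 ± 0.29 and 2.66 ± 0.22, adjusted p 0.0281 and 0.0294). Others with the block were Dhrs3 (1.62), Rarb (0.95), Stra6 (0.89) and Rxrb (0.81). With IAA, 5 of the 15 rose, Stra8, Nrip1, Rarb and Dhrs3 among them, where 1.82% of all genes passed. Of 11 TALE genes, whose products bind DNA with Hox proteins, 2 rose with the block, among them Pbx3 (0.46 ± 0.13).

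In the blocked fit 11.4% of all genes passed for RA against control and 1.82% for RA with IAA against IAA. Of 27 Polycomb genes tested, 8 fell with RA in that fit and Phc2 rose (0.38), with a list median of -0.20. Among those that fell were Jarid2 (-0.83), Phc1 (-1.04), Mtf2 (-0.50), Kdm2b (-0.48), Cbx8 (-0.94) and Bmi1 (-1.05). With IAA, Jarid2 (-0.97) and Phc1 (-0.87) fell. Of 11 Trithorax genes, whose products keep Hox genes active, Psip1 fell (-0.35). The flanks of the clusters moved less than the clusters: of 17 neighbouring genes, Ttll6 rose (0.87) and Snx10 (-0.53) and Hnrnpa1 (-0.41) fell, with a median of -0.12. Of 7 noncoding genes inside the clusters that could be tested, Hoxd3os1 (-1.77 ± 0.43), Hoxb5os (-1.38 ± 0.29) and Hoxa11os (-0.87 ± 0.31) fell, with a median of -0.75. Their counts come from bases that no other gene covers, since fragments over more than 1 gene were left out. Of 11 ParaHox genes and axis regulators, 6 fell, namely Gsx2 (-1.80), Gbx2 (-1.40), Pdx1 (-1.30), Gsx1 (-1.20), Sp5 (-1.08) and Zfp503 (-0.71), with a median of -0.71. The fit without the block called none of the genes of this paragraph.

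Some markers of cell types also moved with RA in the blocked fit, where 11.4% of all genes passed. The fit without the block called none of these markers. Esrrb (-1.44 ± 0.11) and Tfcp2l1 (-0.92 ± 0.11) of 7 pluripotency genes tested fell in the blocked fit. The summed level of the list was 1140 and 1713 CPM in the controls and 504 and 746 CPM with RA. Most of that sum came from these same genes. Esrrb was at 701 and 996 CPM in the controls and 245 and 381 CPM with RA. Tfcp2l1 was at 370 and 644 CPM, then 206 and 318 CPM. Of neuroectoderm genes 3 of 5 fell (Pax6, Pax3, Zic1), of trophoblast genes 2 of 6 (Tfap2a, Gata3), of primitive endoderm genes 3 of 7 (Foxa2, Sox17, Gata4) and of mesoderm genes 0 of 7, none of these lists having a riser. Of fibroblast genes 1 of 5, Pdgfrb (1.73 ± 0.17), rose. The list medians were -0.73, -0.62, -0.67, -0.18, -0.29 and 0.27 in the order pluripotent, neuroectoderm, trophoblast, primitive endoderm, mesoderm and fibroblast. Of 31 olfactory receptor genes tested, 2 were higher and 2 lower, with a median of -0.01. What part these shifts have in the Hox and Cdx result was not tested.

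Removal of TBP alone left no member past the threshold in C64. After 16 h of IAA (run 3), edgeR called 0 of 25 members and 0 of 16349 genes (0%) without the block. It called 0 members with the block, where 2.16% of genes passed. Without and with the block, 0 and 2 members had an unadjusted p under 0.05, against 1.95% and 12.1% of genes. DESeq2 called 0 (0.0245% of genes), as did the likelihood-ratio test (0.0122%). The fold change was negative for 20 of 25, with a median of -0.14; the most negative was that of Hoxa10 (-0.51 ± 0.23). After 6 h (run 2) edgeR called 0 of 25 members and 7 of 16157 genes (0.0433%), all 7 lower. It called 0 members with the column sets as a block, where 1.19% of genes passed. Without and with this block, 0 and 2 members had an unadjusted p under 0.05, against 2.19% and 8.05% of genes. Neither DESeq2 (0.167% of genes) nor the likelihood-ratio test (0.179%) called a member. The fold change was positive for 14 of 25, with a median of 0.10; Hoxd13 (0.64 ± 0.37) and Hoxb4 (0.53 ± 0.25) were the most positive and Hoxa13 (-0.41 ± 0.35) the most negative. Over all 24 libraries and 6 contexts of both lines, 1 common IAA effect was fitted to 26 members. Of these 23 were positive, with a median of 0.19, and 0 passed. Over all genes 144 passed (0.806% of those tested), 13 higher and 131 lower, or 49 and 104 with scaling by library size alone. At an unadjusted p under 0.05 were 3 members, as were 9.98% of all genes tested. Hoxd13 came nearest (0.57 ± 0.17, adjusted p = 0.1202) and passed in the likelihood-ratio test (1.43% of genes), and DESeq2 called 0 (1.8%). Split by the authors' lists, the 13 members with a TATA box had a median of 0.15 and the 13 without one of 0.20.

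**Figure D4:**
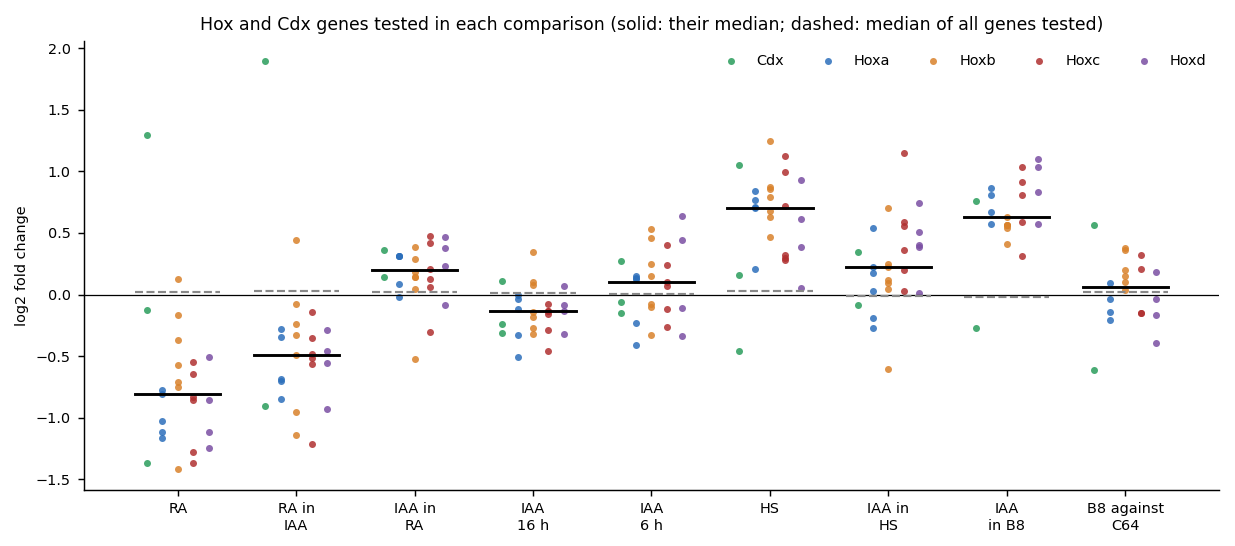
Log2 fold change of each Hox and Cdx gene tested in 9 comparisons (1 point is 1 gene, coloured by cluster; solid line, their median; dashed line, median of all genes tested; fits without a block). The medians are -0.81 for RA, -0.49 for RA in IAA, 0.70 for heat shock and 0.63 for IAA in B8, and lie between -0.14 and 0.22 in the others.

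Heat shock went with higher Pol II over the clusters, unequally in the 2 libraries. Of 25 members tested 24 had a positive log2 fold change, with a median of 0.70 against 0.03 over all genes, and in 13 both heat shock libraries lay above both controls, as in 22% of genes. edgeR called 0 members (494 of 16332 genes, 3.02%), and 11 had an unadjusted p under 0.05, as had 16% of genes. DESeq2 called 0 as well (3.42% of genes), and the likelihood-ratio test 1, Hoxb13 (4.85%). With the column sets as a block, 4 rose, Hoxb13, Hoxc11, Hoxc13 and Cdx1, where 8.41% of genes passed. The sets as pairs were chosen after the data were seen.

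Hoxb13, the most posterior gene of its cluster, was at 8.17 and 5.34 CPM in the controls, 6.95 and 11.5 with IAA, 17.5 and 14.1 after heat shock and 6.35 and 13.9 after heat shock with IAA. Cdx1 was at 9.03 and 8.77 CPM in the controls, 13.5 and 7.94 with IAA, 18.5 and 17.7 after heat shock and 16.9 and 16.8 after heat shock with IAA. Both heat shock libraries exceeded both controls for each of these, at 1.25 ± 0.38 and 1.05 ± 0.34 (edgeR adjusted p 0.0163 and 0.0343 with the sets as a block, 0.0896 and 0.110 without). Hoxc11 was at 9.46 and 17.1 CPM in the controls, 16.3 and 14.8 with IAA, 22.99 and 28.6 after heat shock and 15.5 and 42.7 after heat shock with IAA, at a fold change of 0.99 ± 0.33. Hoxc13 was at 9.24 and 15.8 CPM in the controls, 14.98 and 11.7 with IAA, 11.9 and 41.03 after heat shock and 13.8 and 39.7 after heat shock with IAA. It was high in library b alone: its log2 fold change was 1.12 ± 0.45 with both, 1.71 without library a and -0.06 without library b. Hoxa9 showed the same, at 30.9 and 23.7 CPM in the controls, 27.1 and 32.2 with IAA, 26.2 and 68.98 after heat shock and 23.5 and 82.2 after heat shock with IAA. Across the cluster genes the b libraries stood apart: the summed Hox level was 365 CPM in a and 639 CPM in b after heat shock and 380 and 815 CPM after heat shock with IAA, against 322 and 329 CPM in the controls, while olfactory receptor genes were at 0.122 and 0.131 CPM per kb after heat shock and 0.1298 and 0.154 after heat shock with IAA. Other gene lists were also higher in b. The summed level of 6 neuroectoderm markers, 1 of them at 0 in each library of run 2, was 197 CPM in a and 296 CPM in b after heat shock and 202 and 316 CPM after heat shock with IAA, against 150 and 168 CPM in the controls. That of 7 trophoblast markers was 117 and 165 CPM, then 115 and 196 CPM, against 102 and 98.3 CPM in the controls. That of 16 noncoding genes of the clusters, of which 5 to 7 were at 0, was 78.8 and 121.7 CPM, then 81.3 and 168.6 CPM, against 68.6 and 68.2 CPM. Trithorax genes were lower in b, at 1316 and 1068 CPM, then 1259 and 1003 CPM, against 1582 and 1494 CPM. The part of these shifts in the Hox values was not tested. Without heat shock library a, 9 members passed, where 15.4% of genes did, and without b, 1 (Hoxb13), where 5.53% did.

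Of the members given in this paragraph, all but Cdx4 and Hoxb1 were higher in library b than in library a after heat shock. Hoxa7 was at 18.7 and 25.4 CPM in the controls, 20.8 and 27.8 with IAA, 21.9 and 51.1 after heat shock and 23.7 and 60.5 after heat shock with IAA. Hoxa10 was at 25.6 and 20.7 CPM in the controls, 23.9 and 26.5 with IAA, 27.2 and 46.1 after heat shock and 33.5 and 71.9 after heat shock with IAA. Hoxb4 was at 13.3 and 12.2 CPM in the controls, 16.5 and 20.1 with IAA, 14.7 and 30.4 after heat shock and 22.02 and 50.6 after heat shock with IAA. In each, the b library after heat shock was the higher one, and after heat shock with IAA higher still. Hoxb7 was at 10.8 and 15.4 CPM in the controls, 14.3 and 16.5 with IAA, 15.5 and 30.97 after heat shock and 14.2 and 35.5 after heat shock with IAA. Hoxb8 was at 17.8 and 12.8 CPM in the controls, 12.2 and 16.7 with IAA, 15.3 and 32.4 after heat shock and 12.3 and 42.5 after heat shock with IAA. Hoxc5 was at 41.9 and 44.2 CPM in the controls, 38.9 and 40.1 with IAA, 37.9 and 64.2 after heat shock and 48.1 and 81.8 after heat shock with IAA. The a libraries of these genes lay close to the controls. Hoxc10 was at 4.299 and 5.13 CPM in the controls, 6.51 and 5.85 with IAA, 4.47 and 10.7 after heat shock and 6.99 and 15.1 after heat shock with IAA. Hoxd11 was at 22.6 and 23.7 CPM in the controls, 15.8 and 26.7 with IAA, 25.6 and 33.6 after heat shock and 16.7 and 41.8 after heat shock with IAA. Hoxd13 was at 4.299 and 8.77 CPM in the controls, 9.77 and 10.4 with IAA, 10.6 and 13.7 after heat shock and 15.9 and 24.2 after heat shock with IAA. Hoxd13 reached its highest level of all 24 libraries in b after heat shock with IAA. Cdx2 was at 20.6 and 19.2 CPM in the controls, 17.8 and 17.8 with IAA, 16.4 and 26.9 after heat shock and 24.6 and 30.1 after heat shock with IAA, a fold change of 0.16 with overlap between the groups. Cdx4 was at 5.37 and 5.13 CPM in the controls, 3.91 and 6.06 with IAA, 4.26 and 3.22 after heat shock and 3.18 and 3.05 after heat shock with IAA. Hoxb1 was at 7.09 and 2.56 CPM in the controls, 5.21 and 3.76 with IAA, 7.45 and 7.24 after heat shock and 5.08 and 10.3 after heat shock with IAA. Cdx4 was the only member with a negative heat shock fold change (-0.46), which did not pass.

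**Figure D5:**
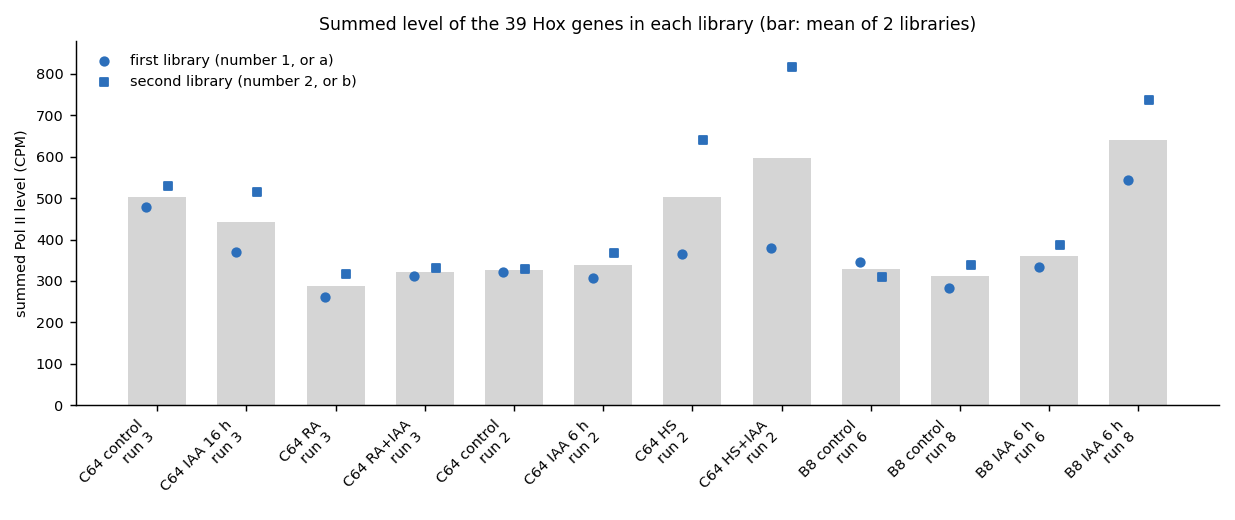
Summed Pol II level of the 39 Hox genes in CPM in each of the 24 libraries (points; circles are the first library of a group and squares the second, or a and b in run 2) with the mean of the 2 libraries (bars). The b libraries after heat shock (639 CPM) and heat shock with IAA (815 CPM) and the B8 IAA libraries of run 8 (543 and 736 CPM) are the highest, and the RA libraries (260 and 316 CPM) are among the lowest.

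With TBP removed before heat shock, edgeR called 0 of 26 members and 0 of 16628 genes (0%) against heat shock alone. No member had an unadjusted p under 0.05, against 0.962% of genes. By DESeq2 and by the likelihood-ratio test 0 were called too. The median fold change was 0.22. With the column sets as a block Hoxc12 rose, where 0.65% of genes passed. It was at 6.45 and 6.2 CPM in the controls, 4.78 and 5.64 with IAA, 3.62 and 11.5 after heat shock and 15.2 and 18.1 after heat shock with IAA. Both libraries with IAA exceeded both without, at 1.15 ± 0.51 (1.26 and adjusted p = 0.0274 in the blocked fit), although library a after heat shock was its lowest of run 2. Of the lists, the blocked fit of heat shock against control had 2 retinoid genes (Nrip1 among them) and 2 Polycomb genes (Eed among them) rising and Rnf2 falling, and 3 Trithorax genes (Kmt2a, Rbbp5, Wdr5) and 2 neighbours (Hibadh, Hnrnpa1) falling; the cluster noncoding genes had 0 of 7 called and a median of 0.53. Of the markers, Tfcp2l1, Zfp42, Nes, Pax6, Tfap2a and Kdr rose. In this blocked fit of heat shock against control 8.41% of all genes passed.

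In B8 cells, which lack TRF2, removal of TBP for 6 h went with higher Pol II on Hox genes in run 8 and less so in run 6. With run as a term, 20 of 21 members tested had a positive log2 fold change, with a median of 0.63 against -0.02 over all genes. Hoxd11 (0.83 ± 0.21, adjusted p = 0.0290) and Hoxa9 (0.87 ± 0.23, adjusted p = 0.0409) rose by edgeR's quasi-likelihood test, 2 of 21 where 743 of 13881 genes (5.35%) were called, 312 higher and 431 lower. Scaling by library size alone gave 662 and 319, with a median of 0.08 over all genes and 0.73 over the members, and Hoxc11 rose there too, where 7.07% of genes were called. Hoxd11 was at 17.2 and 18.7 CPM in the run 6 controls, 24.9 and 27.1 with IAA in run 6, 19.4 and 23.8 in the run 8 controls and 35.8 and 52.4 with IAA in run 8. Hoxa9 was at 24.6 and 24.6 CPM in the run 6 controls, 31.6 and 27.1 with IAA in run 6, 21.3 and 32.5 in the run 8 controls and 53.3 and 76.05 with IAA in run 8. All 4 IAA libraries of Hoxd11 exceeded all 4 controls, the only member to do so (4.2% of genes did), and for Hoxa9 this held within each run. Both calls depended on single libraries of run 8: 0 members passed without the first or second control (2.29% and 1.9% of genes called) or the first or second IAA library (2.57% and 1.96%) of that run. Without the first control of run 6 Hoxd11, Hoxa9 and Hoxd13 passed (2.61% of genes), and without the first IAA library of run 6 Hoxd11, Hoxa10 and Hoxc11 did (2.58%). Without the second IAA library of run 6 Hoxa9 alone passed (2.6%), and without its second control, the shallowest library, 11 members did (13.4%). Without single libraries the fold change ran from 0.62 to 0.92 for Hoxd11 and from 0.61 to 1.02 for Hoxa9. The summed Hox level was 346 and 310 CPM in the controls and 335 and 386 CPM with IAA in run 6, and 283 and 339 CPM against 543 and 736 CPM in run 8. DESeq2 called 2 members (5.94% of genes) and the likelihood-ratio test 4 (8.44%).

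In run 8 both IAA libraries exceeded both controls in the members given in this paragraph, except Cdx1, Cdx4 and Hoxb1. The share of all genes that did so within run 8 was not determined. Hoxa7 was at 13.9 and 27.5 CPM in the run 6 controls, 20.8 and 27.9 with IAA in run 6, 11.1 and 22.4 in the run 8 controls and 27.96 and 38.7 with IAA in run 8. Hoxa10 was at 26.2 and 20.6 CPM in the run 6 controls, 17.4 and 37.8 with IAA in run 6, 23.1 and 25.6 in the run 8 controls and 38.01 and 48.5 with IAA in run 8. Hoxb4 was at 12.3 and 17.7 CPM in the run 6 controls, 13.3 and 22.2 with IAA in run 6, 13.9 and 20.1 in the run 8 controls and 24.03 and 38.2 with IAA in run 8. In run 6 the groups of these genes overlapped. Hoxb7 was at 20.5 and 6.88 CPM in the run 6 controls, 20.8 and 15.6 with IAA in run 6, 14.8 and 11.9 in the run 8 controls and 19.7 and 24.5 with IAA in run 8. Hoxb8 was at 20.5 and 10.8 CPM in the run 6 controls, 17.4 and 19.7 with IAA in run 6, 13.9 and 22.4 in the run 8 controls and 27.1 and 36.1 with IAA in run 8. Hoxc5 was at 42.6 and 42.3 CPM in the run 6 controls, 33.2 and 36.2 with IAA in run 6, 33.3 and 32.96 in the run 8 controls and 63.8 and 91.95 with IAA in run 8. Hoxc5 had the highest level of any member in a library, 92.0 CPM in the second IAA library of run 8. Hoxc11 was at 12.3 and 14.8 CPM in the run 6 controls, 10.8 and 24.7 with IAA in run 6, 15.7 and 20.6 in the run 8 controls and 35.8 and 47.7 with IAA in run 8. Hoxc12 was at 9.82 and 2.95 CPM in the run 6 controls, 4.98 and 3.29 with IAA in run 6, 5.56 and 3.204 in the run 8 controls and 12.7 and 21.1 with IAA in run 8. Hoxc13 was at 14.7 and 20.6 CPM in the run 6 controls, 16.6 and 12.3 with IAA in run 6, 9.72 and 12.4 in the run 8 controls and 16.6 and 21.5 with IAA in run 8. Hoxc11 came next to the 2 called genes, at 0.91 ± 0.27 (edgeR adjusted p = 0.0608). Hoxd13 was at 9.01 and 0.983 CPM in the run 6 controls, 8.31 and 6.58 with IAA in run 6, 10.2 and 7.32 in the run 8 controls and 21.8 and 20.6 with IAA in run 8. Hoxb13 was at 13.1 and 8.85 CPM in the run 6 controls, 9.14 and 7.397 with IAA in run 6, 2.78 and 10.1 in the run 8 controls and 12.7 and 18.5 with IAA in run 8. Cdx2 was at 14.7 and 7.87 CPM in the run 6 controls, 9.14 and 27.1 with IAA in run 6, 11.1 and 16.02 in the run 8 controls and 22.7 and 26.2 with IAA in run 8. Their fold changes did not pass, Hoxd13 having 1.03 ± 0.38 and Cdx2 0.76 ± 0.31. Cdx1 was at 15.6 and 17.7 CPM in the run 6 controls, 9.97 and 12.3 with IAA in run 6, 7.87 and 11.4 in the run 8 controls and 8.3 and 11.2 with IAA in run 8, lower with IAA in run 6 and overlapping in run 8. Cdx4 was at 1.64 and 2.95 CPM in the run 6 controls, 3.32 and 2.47 with IAA in run 6, 1.39 and 3.66 in the run 8 controls and 2.18 and 3.01 with IAA in run 8. Hoxb1 was at 2.46 and 4.92 CPM in the run 6 controls, 1.66 and 3.29 with IAA in run 6, 5.56 and 3.204 in the run 8 controls and 3.495 and 8.16 with IAA in run 8. Hoxc10 was at 5.73 and 4.92 CPM in the run 6 controls, 4.98 and 9.04 with IAA in run 6, 5.09 and 5.49 in the run 8 controls and 6.99 and 9.02 with IAA in run 8. These last 3 had too few counts in B8 to test.

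Of the lists in B8, 1 of 13 retinoid genes (Rarg, -0.59) and 2 of 26 Polycomb genes (Jarid2, -0.67, and Mtf2, -0.48) fell by edgeR's quasi-likelihood test. So did 4 of 16 neighbours (Hnrnpa1, -0.73, Cbx5, -0.54, Snx10, -0.50, and Skap2, -0.48). Of the 16 neighbours tested, 7 fold changes were positive and 9 negative, with a median of -0.02. In run 8 the summed level of the neuroectoderm markers was 116 and 128 CPM in the controls and 183 and 222 CPM with IAA. For the ParaHox and axis genes it was 130 and 153 CPM, then 224 and 237 CPM. The sums of the Polycomb, Trithorax, neighbouring and pluripotency lists were lower with IAA there. The part of these shifts in the Hox values was not tested. None of 10 TALE, 11 Trithorax, 5 cluster noncoding and 7 ParaHox and axis genes passed, with medians of 0.01, 0.01, 0.47 and 0.39. Of the markers, Esrrb fell (-0.51) and Zic1 rose (0.93). In this B8 fit 5.35% of all genes were called. B8 controls were set against the C64 controls of run 2, where line and run cannot be told apart. edgeR called 0 of 20 members and 0 of 14622 genes (0%). An unadjusted p under 0.05 was found for 0 members and for 5.9% of genes. The likelihood-ratio test (0.144% of genes) and DESeq2 (0.109%) called 0 members too. Of 20 fold changes 11 were positive, with a median of 0.06, and Cdx2 had the most negative one (-0.61 ± 0.31).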

How the data were processed

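For Pol II CUT&Tag, reads of each run were subsampled to a fixed number, aligned to mm10 (GRCm38) with Bowtie2 with duplicates kept, and counted. The deposited count tables hold raw counts per gene that the authors made with featureCounts 2.0.0, by fragment over the whole gene (Ensembl release 102), without strand and without fragments over more than 1 gene. FastQC, bedtools and deepTools are named in the submitters' notes too. There were 27752 genes in C64 and 55367 in B8; 14 pairs of columns shared between tables held the same values, and each library was used once. The deposited lists of TATA-box and TATA-less genes hold other data, gene names and positions, and the deposited normalization table was used only to assign B8 columns to runs and replicate numbers, not for scaling. CPM are therefore relative to the counts of each library, and a change of all genes alike would not show.

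Each pair of groups was fitted on its own in edgeR 4.0.16 (R 4.3.3) on all genes of the C64 tables that passed filterByExpr with a minimum count of 20, with TMM scaling and the quasi-likelihood test, and p-values were adjusted over all genes tested by Benjamini-Hochberg (threshold 0.05). B8 fits had the run as a term. Errors are SE of log2 fold changes. The procedure was tested on simulated data. Correlations between libraries used log2 of CPM plus 0.5. Levels per countable kb divide CPM by the bases of a gene that no other gene overlaps. Alternatives were the likelihood-ratio test, DESeq2 1.42.0, RLE and library-size scaling, filters at 5 and none, a joint fit of a run, each library left out, and a block for replicate numbers. These correlations are over all genes tested unless the members are named. In run 3 the deviations of same-numbered libraries from their group means correlated at 0.454 to 0.658 in all 6 pairs of groups. Over the members they correlated at 0.135 to 0.386. The block is therefore given beside the results. In run 2 the column sets correlated at 0.109 to 0.517, and they were used as a block after the data were seen. In B8 the correlations were -0.0547 and 0.0018.

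Members, gene lists and tests were chosen with earlier results of these data known. Members past the threshold in any comparison, with or without the block, the Cdx genes, Hoxb1 and the member of each cluster with the largest RA fold change are given with their values, and from each list up to 6 genes past the threshold. One further member and 3 list genes that this rule would name are not reported here, though counts and medians over the members and lists hold them. The lists are retinoid, TALE, Polycomb, Trithorax, neighbouring, cluster noncoding and ParaHox genes, markers of 6 cell types and olfactory receptors. The study calls the libraries of a group biological replicates, without saying which steps were separate, and p-values measure the spread between these libraries.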

Additional observations from a re-analysis of the deposited data

Results flagged for a closer look

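Differences between IAA effects were picked out where both IAA libraries moved one way in 1 setting and both the other way in another; none of these differences was tested. Hoxc10 had a log2 fold change of -0.46 after 16 h of IAA and 0.40 after 6 h, a difference of -0.86, and Hoxd9 had -0.32 and 0.44, a difference of -0.77. Hoxc12 had -0.27 after 6 h of IAA against 0.48 for RA with IAA against RA (a difference of -0.75) and against 1.15 for heat shock with IAA against heat shock (-1.41), the last pair being from 1 run and from separate libraries. Cdx1 had 0.36 for RA with IAA against RA and -0.09 for heat shock with IAA against heat shock, a difference of 0.45. None of these IAA effects passed the threshold without a block.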

How the results depend on the processing

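The number of members past the threshold stayed within 1.5 times that of the fit without a block in 69 of 82 other settings. The same held in 61 of 74 fits that left out a library. That number was 0 in the fit without a block for every comparison but IAA in B8, so most of these agreements were of 0 with 0. For RA against control it was 0, with 14 in the replicate block (1863 genes against 3) and 4 in the likelihood-ratio test. For RA with IAA against IAA it was 0, with 1 in the replicate block, the likelihood-ratio test, DESeq2 and the fit without a filter (298 genes with the block against 0). For heat shock it was 0, with 4 with the column sets as a block (1373 genes against 494) and 1 in the likelihood-ratio test, and for heat shock with IAA against heat shock 0, with 1 with the sets as a block (108 genes against 0). For IAA in B8 it was 2, with 1 in the replicate block (431 genes against 743), where the numbers are not shown to pair the samples, 4 in the likelihood-ratio test and 6 without a filter. For the IAA effect over all contexts it was 0, with 1 in the likelihood-ratio test. The block changed no other call of a member count. With single libraries left out the count ran from 0 to 1 for both RA comparisons, 0 to 9 for heat shock and 0 to 11 for IAA in B8, and was 0 in the others. Signs turned only with a library left out: Hoxc13 after heat shock ran from -0.0563 to 1.71, Cdx4 with RA from -0.98 to 0.40, Hoxb1 with RA from -0.66 to 0.19 and Hoxb1 with RA in IAA from -0.52 to 0.53. Of the named members, 197 of 226 values in other settings and 105 of 128 with a library left out had the same direction and side of the threshold; 28 and 8 newly passed, and 1 and 10 no longer passed, all of the latter being Hoxa9 or Hoxd11 in B8. The median level per kb of the 30 countable members was 2.62 CPM by gene length and 3.01 CPM by countable length. The causes were not tested. Hoxa2, Hoxd1, Hoxd3 and Hoxd10 had too few counts for a test at this depth in most comparisons.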
